A study of Mus musculus with 16 samples.

Results

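The Wnt ligands, their receptors, the secreted antagonists and the first intracellular components of the pathway were examined in mouse fallopian tubes. They were taken by gene symbol: Wnt, Fzd, Dkk, Sfrp and Rspo genes with a number, and Lrp5, Lrp6, Wif1, Axin2, Ctnnb1, Lef1, Tcf7 and Tcf7l2. The array held 68 probes for 48 such genes, of 25697 probes for 18138 gene symbols in all. There were 19 ligands, 11 receptors and co-receptors, 9 antagonists, 4 R-spondins and 5 intracellular components. Axin1, Fzd9 and Tcf7l1 were not analysed here.

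Gene expression was measured in 16 samples on Illumina arrays (MouseRef-8 v2), on which each probe reads the signal intensity of 1 transcript. There were 4 groups of 4 samples: control and progesterone for 20 min, and control and progesterone for 2 h. The tubes came from female C57BL/6N mice of 3.5 to 5 weeks that had received no hormone, and they were opened, cut into pieces and kept in G-MOPS medium. The medium of the progesterone samples held 100 nmol/L progesterone and 0.01% ethanol, and that of the controls held 0.01% ethanol. Each sample pooled 6 tubes, and a control and a progesterone sample with the same code formed a pair (27n, 26n, 12n and 22ob at 20 min; 6d, 19n, 30o and 15o at 2 h). No pool was measured at both times, so exposure time and the animals in the pools cannot be told apart. The samples were whole tubes, so fewer cells of a type and less RNA per cell cannot be told apart either. The 9 measured markers of ciliated cells and the 9 genes listed for secretory epithelium were detected on all 16 arrays.

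Wnt proteins are secreted ligands that bind frizzled receptors. With the co-receptors Lrp5 and Lrp6, some of them stop the breakdown of β-catenin (Ctnnb1), which then activates genes together with Tcf/Lef factors; others, such as Wnt5a, mostly act without β-catenin. R-spondins keep frizzled receptors at the cell surface, whereas Sfrp proteins and Wif1 bind the ligands and Dkk1 blocks the co-receptors. In the female reproductive tract, Wnt4, Wnt5a and Wnt7a are known from the formation and patterning of the Müllerian duct, from which the fallopian tube develops.

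The array table gives no probe sequences, and the sequences shown are those upstream of genes that changed between 2 h and 20 min in the present data. RefSeq's start-site table (GRCm38.p6) had entries for 32 of the 48 genes. Rspo3, Wnt5a, Wnt7b, Fzd2 and Fzd6, which changed in both arms, had no entry and are not shown. The 250 bases before the start are printed 5′ to 3′ for Axin2 (chr11:108920099-108920348, plus strand), Wif1 (chr10:121033754-121034003, plus strand), Fzd7 (chr1:59481897-59482146, plus strand), Fzd10 (chr5:128600856-128601105, plus strand), Sfrp2 (chr3:83766071-83766320, plus strand) and Fzd5 (chr1:64737751-64738000, minus strand). The first 5 fell in both arms, and Fzd5 rose in the progesterone arm. Capitals mark CTTTG or its reverse complement CAAAG, the core of the Tcf/Lef motif, and TGTTCT or its reverse complement AGAACA, a half-site of the progesterone receptor motif, which other steroid receptors share.
Axin2: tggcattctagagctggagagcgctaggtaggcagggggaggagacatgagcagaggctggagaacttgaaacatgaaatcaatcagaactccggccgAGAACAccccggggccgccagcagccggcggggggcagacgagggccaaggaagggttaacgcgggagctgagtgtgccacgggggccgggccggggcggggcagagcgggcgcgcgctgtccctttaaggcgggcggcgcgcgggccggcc
Wif1: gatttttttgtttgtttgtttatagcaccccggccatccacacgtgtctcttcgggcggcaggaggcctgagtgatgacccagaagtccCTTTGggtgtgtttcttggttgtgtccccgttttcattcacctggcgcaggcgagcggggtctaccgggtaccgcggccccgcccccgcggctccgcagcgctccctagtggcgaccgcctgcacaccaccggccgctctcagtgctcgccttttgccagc
Fzd7: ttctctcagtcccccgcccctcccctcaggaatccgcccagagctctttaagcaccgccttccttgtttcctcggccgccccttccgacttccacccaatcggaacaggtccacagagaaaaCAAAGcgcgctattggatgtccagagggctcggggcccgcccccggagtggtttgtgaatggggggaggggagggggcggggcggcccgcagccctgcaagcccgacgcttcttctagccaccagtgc
Fzd10: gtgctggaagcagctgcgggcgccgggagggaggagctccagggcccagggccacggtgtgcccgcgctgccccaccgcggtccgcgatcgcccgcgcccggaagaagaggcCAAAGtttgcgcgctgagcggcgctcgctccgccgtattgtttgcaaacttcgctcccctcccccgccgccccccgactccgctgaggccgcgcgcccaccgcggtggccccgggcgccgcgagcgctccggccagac
Sfrp2: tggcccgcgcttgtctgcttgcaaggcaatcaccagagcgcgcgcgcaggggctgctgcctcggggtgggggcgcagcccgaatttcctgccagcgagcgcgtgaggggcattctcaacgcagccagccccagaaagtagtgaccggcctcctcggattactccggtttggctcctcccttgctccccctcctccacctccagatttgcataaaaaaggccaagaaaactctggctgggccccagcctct
Fzd5: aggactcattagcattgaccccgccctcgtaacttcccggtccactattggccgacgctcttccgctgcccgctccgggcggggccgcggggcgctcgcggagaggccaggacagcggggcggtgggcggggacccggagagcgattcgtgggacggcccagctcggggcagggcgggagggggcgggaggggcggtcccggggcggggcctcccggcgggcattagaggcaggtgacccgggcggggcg
The Tcf/Lef core lay 161 bases before the start of Wif1, 128 before that of Fzd7 and 138 before that of Fzd10. In the window of Axin2, a known target of β-catenin, the marked motif was the half-site AGAACA, 152 bases before the start. Neither motif was in the windows of Sfrp2 and Fzd5. The core was in 48.6% of the 32851 windows in the table and the half-site in 16.1%. Of the 41 windows of the Wnt genes, 46.3% held the core and 17.1% the half-site. A match of letters is a description and not a binding site.

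Of the 48 genes, 17 (35.4%) were detected (detection p-value under 0.05) on every one of the 16 arrays. The detection p-value tells which part of the negative controls outshines a probe, and a gene with several probes was represented by the one with the highest mean signal. A further 20 genes were detected on some arrays and 11 on none. Among all probes of the array 42.4% were detected on all 16 arrays, and among the 68 Wnt probes 35.3%. The 11 genes detected on no array were Wnt1, Wnt2b, Wnt3a, Wnt8a, Wnt8b, Wnt10a, Wnt10b, Rspo2, Dkk2, Dkk4 and Lef1.

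The ligands on all 16 arrays were Wnt4, Wnt5a, Wnt5b, Wnt7a, Wnt7b and Wnt16. Wnt6 was on 15 arrays and Wnt11 on 12, whereas Wnt2, Wnt3, Wnt9a and Wnt9b were on 1 or 2. Most frizzled receptors were present. Fzd3, Fzd5, Fzd6, Fzd7, Fzd10 and the co-receptor Lrp5 were detected on all 16 arrays, Fzd2 on 11, Fzd8 and Lrp6 on 10, Fzd1 on 5 and Fzd4 on 3. Among the antagonists, Dkk3, a Dickkopf relative that does not bind the co-receptors as Dkk1 does, was detected on all 16 arrays, and Sfrp2 and Wif1 on 15. Sfrp1 was detected on 8 arrays, Dkk1 and Sfrp4 on 5 and Sfrp5 on 3. Rspo3 was on all 16 arrays, Rspo1 on 10 and Rspo4 on 1. Of the intracellular components, Ctnnb1, Axin2 and Tcf7l2 were on all 16 and Tcf7 on 10.

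Fewer of the genes were detected after 2 h. Each array of the controls of 20 min detected 27 or 28 of the 48 genes, and each array of the progesterone samples of 20 min 28 or 29. At 2 h the controls detected 22 to 26 (median 24) and the progesterone samples 21 to 26 (median 24). Over all probes, the arrays detected 13381 to 14267 at 20 min and 13222 to 13715 at 2 h, ranges that overlap. Rspo1 was detected on 8 of 8 arrays of 20 min and 2 of 8 of 2 h, Fzd8 on 8 and 2, Fzd2 on 8 and 3, Sfrp1 on 7 and 1, and Lrp6 on 7 and 3. Dkk1 (2 and 3 arrays), Wnt3 (0 and 2), Sfrp5 (1 and 2), Wnt2 (0 and 1) and Rspo4 (0 and 1) were detected slightly more often at 2 h. These signals lie close to the background, where a small change of signal changes the detection call.

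**Figure D1:**
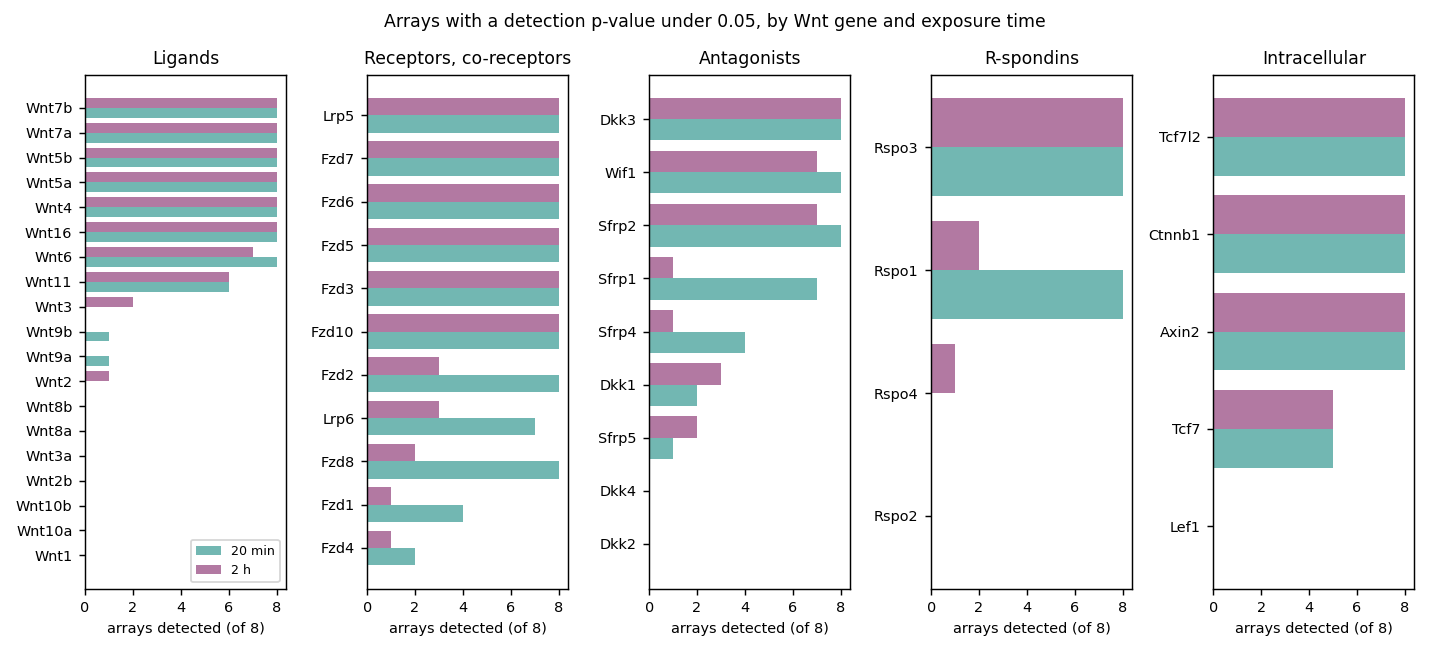
Number of arrays, of 8 at 20 min and 8 at 2 h, on which each of the 48 Wnt genes had a detection p-value under 0.05, by role. Bars of 8 in both colours mark the 17 genes detected on all 16 arrays, and Rspo1, Fzd8, Fzd2, Sfrp1 and Lrp6 have shorter bars at 2 h.

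Signals were quantile-normalized over the 16 arrays and converted to log2, and probes with a detection p-value under 0.5 on at least 13 arrays were tested with limma. Of the 68 Wnt probes, 45 for 32 genes passed this filter: 9 ligands, 11 receptors, 6 antagonists, 2 R-spondins and 4 intracellular components. The progesterone effect was tested with the pair as a block and a threshold of 0.20 on the adjusted p. The study set that threshold on the q-value of another paired test, Significance Analysis of Microarrays. Exposure time was tested with a threshold of 0.05 on the adjusted p. The adjustment (Benjamini-Hochberg) ran over all 16848 probes tested.

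The comparison of 2 h with 20 min gave the clearest differences. In the controls, 11 of the 45 Wnt probes were called (24.4%), against 11.3% of all probes tested. Of these, 10 were lower at 2 h (22.2%, against 5.33% of all probes) and 1 was higher (2.22%, against 6.01%). The count was 7 without pair 26n or 22ob at 20 min or pair 19n at 2 h, when 6.91% to 7.85% of all probes were called, and 6 without pair 30o at 2 h (7.53% of all probes). With median scaling 12 Wnt probes (26.7%) and 9.19% of all probes were lower. The median log2 fold change was -0.10 over the Wnt probes and -0.014 over all probes. The genes that fell in the controls were the R-spondin Rspo3, the ligand Wnt5a, the receptors Fzd2, Fzd6, Fzd7 and Fzd10, the antagonists Sfrp2 and Wif1, and Axin2. The gene that rose was the ligand Wnt7b.

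The progesterone samples, which are other tubes of the same pairs, gave a like picture. There were 16 Wnt probes called (35.6%, against 15% of all probes), 13 lower at 2 h (28.9%, against 7.79%) and 3 higher (6.67%, against 7.19%). With median scaling 20 Wnt probes (44.4%) and 24.8% of all probes were lower, and without pair 26n at 20 min 10 Wnt probes were called (22.2%, against 11.4%). With the fibroblast level described below as a covariate, 7 were called (15.6%, against 9.50%), and with the smooth muscle level 10 (22.2%, against 13.7%). The median log2 fold change was -0.12 over the Wnt probes and -0.014 over all probes. All 11 probes called in the controls, for 10 genes, were called with the same sign in the progesterone samples, which is 100% of the calls in the controls and 68.75% of those with progesterone. Over all probes these shares were 73.6% and 55.7%. Set against the probes tested, 24.4% of the Wnt probes and 8.35% of all probes were called in both arms with 1 sign. The study pairs the samples that share a code, so the arms were not taken as independent of each other. Fzd5, Fzd8 and Wnt6 were called with progesterone and not in the controls, as were a further probe of Ctnnb1 and one of Wnt16; the difference between the arms was tested with the interaction described below and called none.

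**Figure D2:**
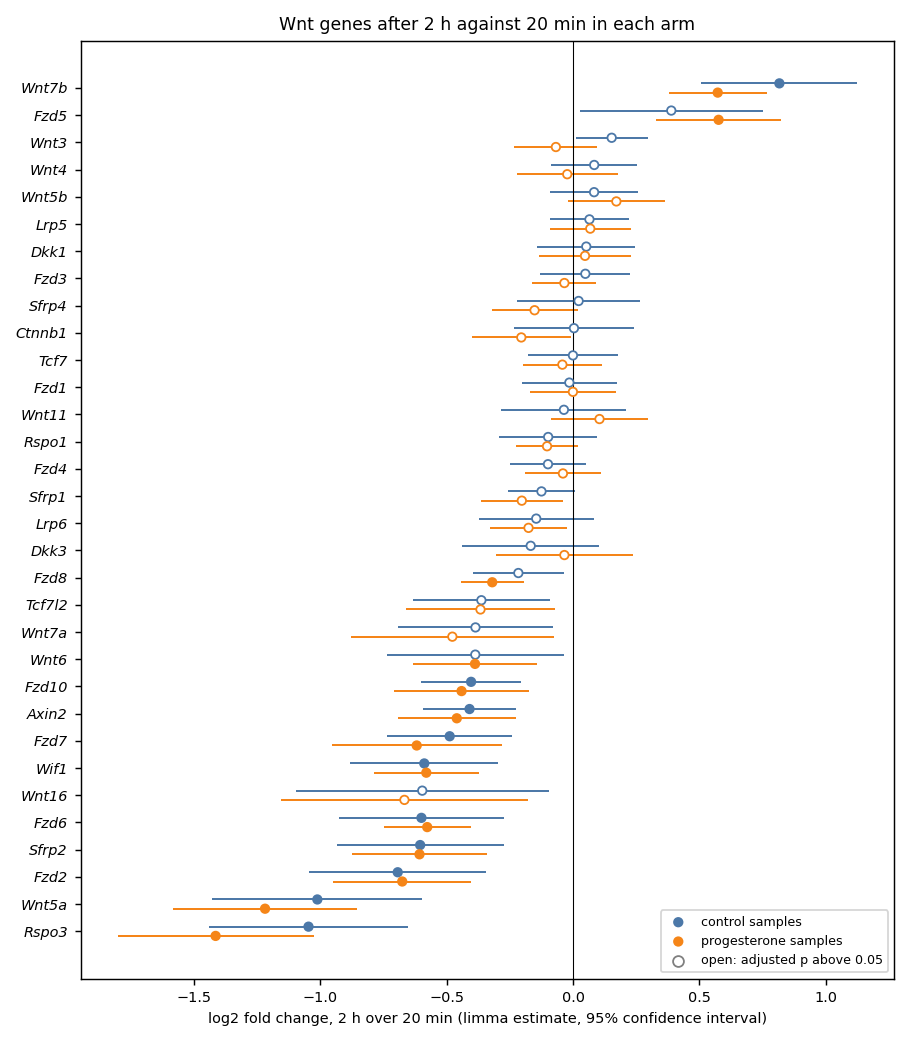
Log2 fold change (2 h over 20 min) with 95% confidence interval from limma for the 32 Wnt genes tested, 4 against 4 samples in each arm. Filled points passed an adjusted p of 0.05; Rspo3 and Wnt5a lie farthest to the left in both arms, and Wnt7b lies to the right.

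Rspo3 (ILMN_3162785, chromosome 10), which strengthens Wnt signals at the receptor, had the largest fall of the Wnt genes on this scale. With normexp background correction (neqc), Fzd2 fell more in the controls (-1.77, against -1.59 for Rspo3). The log2 signal of Rspo3 in the controls was 8.88, 9.18, 8.58 and 8.69 at 20 min (pairs 27n, 26n, 12n and 22ob) and 8.08, 7.86, 7.89 and 7.30 at 2 h (pairs 6d, 19n, 30o and 15o). In the progesterone samples it was 9.60, 8.79, 8.91 and 9.07 at 20 min and 8.01, 7.49, 7.54 and 7.67 at 2 h. Every sample of 2 h lay below every sample of 20 min. The log2 fold change was -1.05 (SE 0.18, adjusted p = 0.00495) in the controls and -1.42 (SE 0.17, adjusted p = 0.000615) with progesterone. Rspo1, the other R-spondin tested, had a log2 fold change of -0.10 in both arms (adjusted p 0.543 and 0.261) and was not called.

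Wnt5a (ILMN_2511913, chromosome 14), a ligand made mainly by stromal cells in many organs, fell nearly as much. Its log2 signal in the controls was 10.51, 10.81, 10.06 and 10.54 at 20 min and 9.87, 9.49, 9.07 and 9.44 at 2 h, in the same order of pairs. With progesterone it was 10.36, 10.95, 10.14 and 10.74 at 20 min and 9.50, 9.34, 9.13 and 9.34 at 2 h. The times did not overlap in either arm, and the highest value of 2 h (9.87) and the lowest of 20 min (10.06) differed by less than the spread within a group. This was a log2 fold change of -1.01 (SE 0.19, adjusted p = 0.0078) in the controls and -1.22 (SE 0.16, adjusted p = 0.00106) with progesterone. The other probe of Wnt5a (ILMN_2472917) was also lower, by -0.46 (adjusted p = 0.0408) and -0.45 (adjusted p = 0.0497).

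Wnt7b (ILMN_2789692, chromosome 15), a ligand expressed in many epithelia, went the other way. Its log2 signal in the controls was 8.92, 8.60, 8.92 and 8.73 at 20 min and 9.22, 9.76, 9.61 and 9.86 at 2 h. The progesterone samples had 9.08, 8.91, 8.86 and 8.81 at 20 min and 9.34, 9.44, 9.66 and 9.51 at 2 h. All samples of 2 h were above all samples of 20 min. The change on the log2 scale was 0.82 (SE 0.14, adjusted p = 0.00508) and 0.57 (SE 0.087, adjusted p = 0.00205). A dimmer probe of Wnt7b (ILMN_2456957) had values of 0.10 (adjusted p = 0.545) and 0.20 (adjusted p = 0.1). With arrays scaled to a common median instead, Wnt7b was not called in the controls (0.63, adjusted p = 0.0618). With progesterone it was called under all 15 alternatives, with values from 0.30 to 0.69 (adjusted p at most 0.0417).

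The other ligands changed less. Wnt6 was at least 7.34 in the controls of 20 min and at most 7.33 in those of 2 h, so that the groups just did not overlap, but the fold change of -0.39 was not called (adjusted p = 0.156). It was called with progesterone at the same size (-0.39, adjusted p = 0.0421), a call that was lost when any one of 6 libraries was left out (pairs 12n, 26n and 27n at 20 min and 15o, 19n and 30o at 2 h; adjusted p 0.0504 to 0.108) and with no filter on dim probes (adjusted p = 0.0564). Wnt16 had 3 probes, all with negative fold changes in both arms. Its brightest probe had values of -0.60 (adjusted p = 0.126) and -0.67 (adjusted p = 0.0694), and 1 of the others (ILMN_2468007) was called with progesterone (-0.64, adjusted p = 0.0442). Wnt7a, which patterns the Müllerian duct, was 8.50 to 8.67 in the controls of 20 min and 7.84 to 8.51 in those of 2 h (-0.39, adjusted p = 0.108). With progesterone Wnt7a had a value of -0.48 (adjusted p = 0.108). It passed the threshold in the controls without the library of pair 6d at 2 h (-0.48, adjusted p = 0.0408) and with progesterone without that of pair 19n at 2 h (-0.64, adjusted p = 0.0230). Median scaling called it in both arms (-0.58, adjusted p = 0.0225; -0.72, adjusted p = 0.00854), as did the fit over all 16 arrays with progesterone (adjusted p = 0.0485). Wnt4, Wnt5b, Wnt11 and Wnt3 had values between -0.07 and 0.17 and were not called in either arm.

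**Figure D3:**
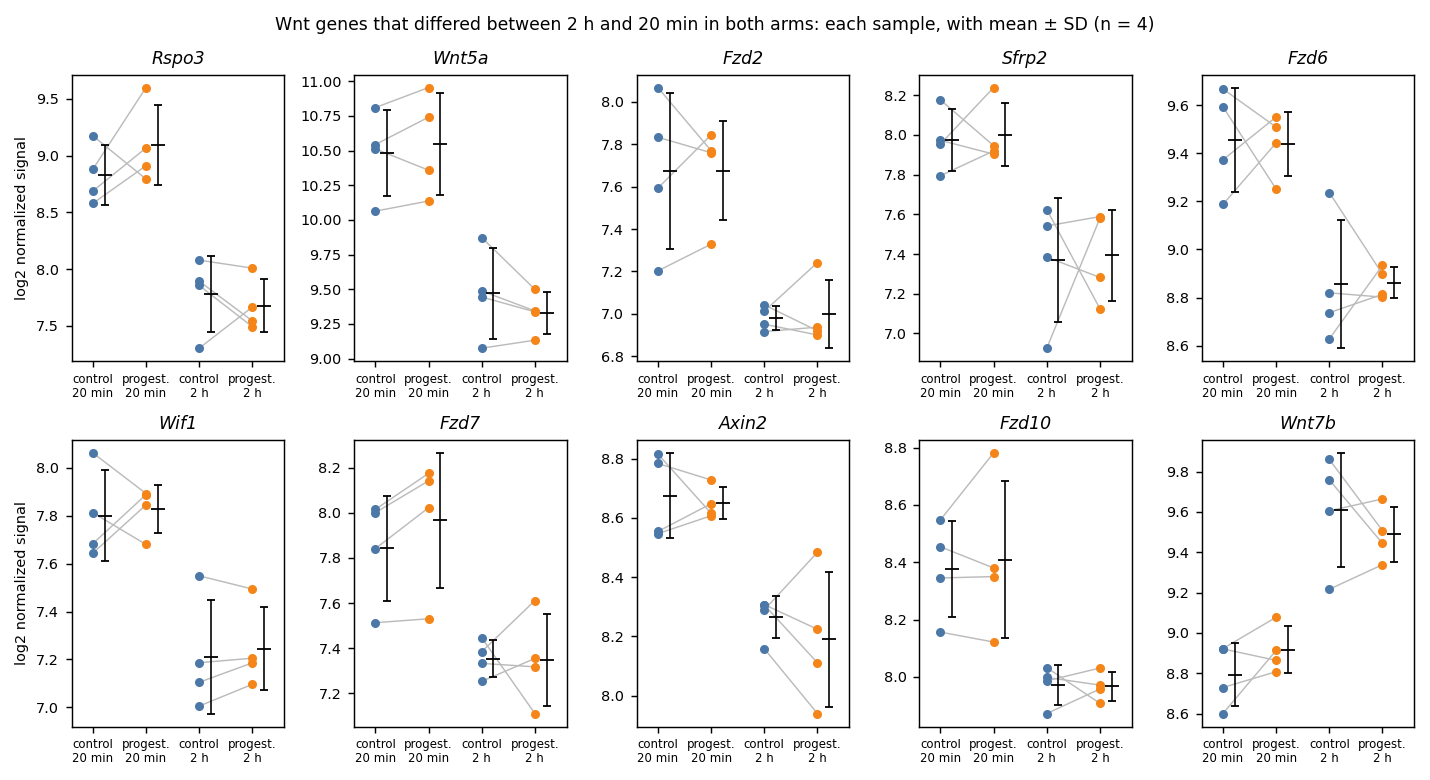
Log2 normalized signal of each sample for the 10 Wnt genes called in both arms, with grey lines joining the samples of a pair and the mean ± SD (n = 4) beside the points. The means of 2 h lie lower for 9 genes and higher for Wnt7b. Samples of the times overlap within an arm for Fzd6 in the controls and Fzd7 with progesterone. The lines between control and progesterone run in both directions.

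Of the 11 receptors and co-receptors tested, with 13 probes, 4 fell in both arms, each with 1 probe. These are 30.8% of the probes, against 8.35% of all probes called in both arms with 1 sign. Fzd2 (ILMN_2939666, chromosome 11) was 7.20 to 8.07 in the controls of 20 min and 6.92 to 7.04 in those of 2 h, where 2 of 4 arrays detected it. With progesterone Fzd2 was 7.33 to 7.84 and 6.90 to 7.24, and 1 of the 4 arrays of 2 h detected it. The values of the times did not overlap in either arm. Its log2 fold change was -0.69 (SE 0.16, adjusted p = 0.0209) and -0.68 (SE 0.12, adjusted p = 0.00538). In the controls the call was lost without the library of pair 27n at 20 min or that of pair 19n or 30o at 2 h (adjusted p 0.0608 to 0.0627).

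Fzd6 (ILMN_3004386, chromosome 15), a receptor known from planar cell polarity, was 9.59, 9.67, 9.37 and 9.19 in the controls of 20 min (pairs 12n, 22ob, 26n and 27n) and 9.24, 8.63, 8.82 and 8.74 in those of 2 h (pairs 15o, 19n, 30o and 6d). The control of pair 15o at 2 h thus overlapped the lowest sample of 20 min. With progesterone the groups were apart (9.25 to 9.55 and 8.80 to 8.93). Between the times, the log2 fold change was -0.60 (SE 0.15, adjusted p = 0.0281) and -0.58 (SE 0.077, adjusted p = 0.001). The call in the controls was lost without any one of 6 libraries (pairs 12n, 22ob and 26n at 20 min and 19n, 30o and 6d at 2 h; adjusted p 0.0534 to 0.0851).

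Fzd7 (ILMN_2907560, chromosome 1), one of the receptors for signals through β-catenin, was 7.51 to 8.02 in the controls of 20 min and 7.25 to 7.45 in those of 2 h, without overlap. With progesterone the ranges were 7.53 to 8.17 and 7.11 to 7.61, and the sample of pair 6d at 2 h was above that of pair 12n at 20 min. The log2 fold change was -0.49 (SE 0.11, adjusted p = 0.0211) and -0.62 (SE 0.15, adjusted p = 0.022). Over the alternatives Fzd7 ran from -0.98 to -0.36 in the controls and from -1.23 to -0.22 with progesterone. In the controls it was not called without pair 22ob, 26n or 27n at 20 min or pair 19n at 2 h (adjusted p 0.0521 to 0.0623). In the progesterone arm it was not called without pair 22ob, 26n or 27n at 20 min or pair 30o at 2 h (adjusted p 0.0586 to 0.0688).

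Fzd10 (ILMN_2976821, chromosome 5) was 8.16 to 8.55 in the controls of 20 min and 7.87 to 8.03 in those of 2 h. With progesterone it was 8.12 to 8.78 and 7.91 to 8.03, again with no overlap. This was a log2 fold change of -0.40 (SE 0.088, adjusted p = 0.0182) and -0.44 (SE 0.12, adjusted p = 0.0352). In the progesterone arm the call was lost without pair 12n or 26n at 20 min or without any one sample of 2 h (adjusted p 0.0511 to 0.0760). Its 2 dimmer probes had values between -0.20 and -0.08 and were not called.

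Fzd5 and Fzd8 passed the test in the progesterone arm. Fzd5 (ILMN_3161263, chromosome 1) was 8.60 to 9.08 at 20 min and 9.34 to 9.64 at 2 h with progesterone, a rise of 0.58 (SE 0.11, adjusted p = 0.00744), and it was not called with arrays scaled to a common median (0.29, adjusted p = 0.0726). In the controls it was 8.67 to 9.30 and 9.11 to 9.72, which overlap, with a value of 0.39 (adjusted p = 0.167). Fzd8 (ILMN_2597578, chromosome 18) was 7.14 to 7.26 at 20 min with progesterone and was detected on none of the 4 arrays of 2 h, whose values were 6.85 to 6.93. It was at least 1.15-fold lower there, as set against the lowest detected signal of each array (limma's fitted value -0.32, adjusted p = 0.00463). That fitted value was -1.04 to -0.30 under the alternatives. In the controls Fzd8 had a value of -0.22 (adjusted p = 0.123). Fzd1, Fzd3, Fzd4 and both co-receptors, Lrp5 and Lrp6, had values between -0.18 and 0.07 and were not called.

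Both antagonists that bind Wnt ligands and were tested at a clear signal fell. Sfrp2 (ILMN_1214602, chromosome 3) was 7.97, 8.18, 7.79 and 7.95 in the controls of 20 min (pairs 27n, 26n, 12n and 22ob) and 7.54, 7.62, 7.38 and 6.93 in those of 2 h (pairs 6d, 19n, 30o and 15o). The control of pair 15o at 2 h was not detected and the lowest. With progesterone Sfrp2 was 7.90 to 8.24 at 20 min and 7.12 to 7.59 at 2 h, without overlap. The change on the log2 scale was -0.61 in both arms (SE 0.15, adjusted p = 0.0286 in the controls; SE 0.12, adjusted p = 0.00853 with progesterone). Under the alternatives it was -1.27 to -0.36 in the controls and -1.21 to -0.42 with progesterone. The call in the controls was lost without pair 22ob, 26n or 27n at 20 min or pair 30o at 2 h (adjusted p 0.0637 to 0.0762).

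Wif1 (ILMN_2857748, chromosome 10) was 7.68, 7.64, 8.06 and 7.81 in the controls of 20 min and 7.10, 7.55, 7.19 and 7.01 in those of 2 h, in the same order of pairs. The progesterone samples had 7.68 to 7.89 and 7.10 to 7.49. The times did not overlap in either arm. Between the times, the log2 fold change was -0.59 (SE 0.13, adjusted p = 0.0193) and -0.58 (SE 0.093, adjusted p = 0.00284). Over the alternatives Wif1 ran from -1.36 to -0.50 in the controls and from -1.28 to -0.53 with progesterone. Without pair 30o at 2 h the adjusted p in the controls was 0.0552. Dkk3 had a high signal on every array, and its brightest probe (ILMN_2852957) had values of -0.17 (adjusted p = 0.442) and -0.03 (adjusted p = 0.893). In the controls this probe passed the threshold with the smooth muscle level (-0.30, adjusted p = 0.0317) or the fibroblast level (-0.37, adjusted p = 0.0158) as a covariate. The probe ILMN_2746556 had values of 0.01 (adjusted p = 0.978) and 0.15 (adjusted p = 0.539). A dim probe, ILMN_1224173, had 0.13 (adjusted p = 0.361) and 0.10 (adjusted p = 0.395), so the probes of Dkk3 differed in sign. Dkk1, Sfrp1 and Sfrp4, all near the background, had values between -0.20 and 0.05 and were not called.

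Axin2 (ILMN_2896314, chromosome 11), part of the complex that breaks down β-catenin and itself switched on by β-catenin, was lower at 2 h. Its log2 signal in the controls was 8.78, 8.55, 8.55 and 8.82 at 20 min and 8.29, 8.16, 8.31 and 8.31 at 2 h. In the progesterone arm it was 8.73, 8.65, 8.61 and 8.62 at 20 min and 8.48, 7.94, 8.11 and 8.22 at 2 h. The times did not overlap in either arm, and the samples of 2 h with progesterone spread most. The log2 fold change was -0.41 (SE 0.082, adjusted p = 0.012) and -0.46 (SE 0.11, adjusted p = 0.0166). The call with progesterone was lost without pair 30o at 2 h (adjusted p = 0.0533).

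The mRNA of β-catenin itself was not called with its brightest probe. Ctnnb1 (ILMN_2994460, chromosome 9) had values of 0.004 (adjusted p = 0.99) in the controls and -0.20 (adjusted p = 0.157) with progesterone. In the progesterone arm this probe passed the threshold under 1 of the 15 alternatives (adjusted p = 0.0411). A dimmer probe (ILMN_2616556) was higher with progesterone (0.34, adjusted p = 0.0372), while the third probe (ILMN_2696575) had a value of -0.20 (adjusted p = 0.244), so the probes of this gene disagree. Tcf7l2, the Tcf/Lef factor with a clear signal here, had values of -0.36 (adjusted p = 0.0907) and -0.37 (adjusted p = 0.0933). It passed the threshold without the sample of pair 6d at 2 h, in the controls (-0.47, adjusted p = 0.0169) and with progesterone (-0.50, adjusted p = 0.00715), and in the controls without pair 12n at 20 min (-0.45, adjusted p = 0.0470). Median scaling called it in both arms (-0.51, adjusted p = 0.0187; -0.58, adjusted p = 0.0065), whereas with the level of the fibroblast markers described below as a covariate it had values of -0.20 (adjusted p = 0.281) and -0.006 (adjusted p = 0.986). Tcf7 had a value of -0.04 with progesterone and was called in neither arm.

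Some markers of the tissue's cell types also differed between the times. The 10 fibroblast markers tested all had negative log2 fold changes in both arms, with a median of -0.59 in the controls and -0.64 with progesterone, but only 1 (10%, against 5.33% of all probes lower) and 3 (30%, against 7.79%) of them passed the test. Of the 9 smooth muscle markers 8 had negative values in each arm (medians -0.58 and -0.70), and 0 and 1 (11.1%) passed. The mean level of the smooth muscle list, relative to the mean of all arrays, was -0.31 to 0.53 in the controls of 20 min and -1.50 to 0.58 in those of 2 h. With progesterone it was -0.08 to 0.54 and -0.97 to 0.49. That of the fibroblast list was -0.25 to 0.80 and -1.28 to 0.33 in the controls, and -0.16 to 0.65 and -0.72 to 0.28 with progesterone. The ranges of the times overlapped for both lists. Of the 9 genes listed for secretory epithelium, Krt8, Krt18 and Cdh1 (33.3%, against 6.01% and 7.19% of all probes higher) rose in both arms. These 3 are expressed in epithelia in general and do not mark secretory cells. Sox17 (11.1%, against 5.33% and 7.79% of all probes lower) fell in both arms. In each arm 6 of the 9 listed genes had positive values (medians 0.42 and 0.20). The mean level of this list was -0.20 to -0.01 in the controls of 20 min and -0.02 to 0.17 in those of 2 h. With progesterone it was -0.19 to -0.04 and 0.02 to 0.25, without overlap. None of the 9 ciliated (medians 0.14 and -0.06), 9 endothelial (0.01 and -0.0008) or 4 erythroid markers (0.08 and 0.01) passed the test in either arm. Of the 7 leukocyte markers, 4 had negative values in the controls and 5 with progesterone (medians -0.08 in both arms), and 1 (14.3%), Cd68, rose in both arms (0.61 and 0.80). Of the 5 mesothelium markers, 2 had negative values in each arm (medians 0.12 and 0.28), and 2 (40%), Msln and Krt19, rose with progesterone. None of the ovarian, adipose or skeletal muscle markers tested was detected on all 16 arrays. Which cells of the tube gave the Wnt signals was not tested.

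The samples of pair 6d had the highest smooth muscle levels of 2 h, 0.58 (control) and 0.49 (progesterone), which are within or above the range of the other animals measured at 20 min. In this pair Rspo3 was 8.08 and 8.01 and Wnt5a 9.87 and 9.50, also the highest values of 2 h in their arms. Wnt7b was 9.22 and 9.34 there, the lowest values of 2 h in their arms. In the controls of 2 h Wnt7b ran opposite to the order of the fibroblast level. With progesterone it did not, since it was 9.44 in pair 19n, which had the lowest fibroblast level (-0.72), and 9.66 in pair 30o. Among the samples of 2 h, Rspo3 followed the fibroblast level in order in both arms and the smooth muscle level with progesterone. In the controls of 2 h its lowest value (7.30) was also at the lowest smooth muscle level (-1.50, pair 15o). Pairs 19n and 30o (7.86 and 7.89) were in the other order. At 20 min Rspo3 followed the fibroblast level in order in the controls. With progesterone at 20 min it did not, since pair 26n had the highest fibroblast level (0.65) and the lowest Rspo3 (8.79). Wnt5a did not follow the smooth muscle order: it was 9.44 in the control of pair 15o and 9.07 in that of pair 30o (level -0.17), and with progesterone 9.34 in pair 19n, which had the lowest level (-0.97), and 9.13 in pair 30o. With the smooth muscle level as a covariate, an alternative added after the data had been seen, Rspo3 had values of -0.84 (adjusted p = 0.000297) in the controls and -1.16 (adjusted p = 0.00139) with progesterone. Wnt5a had values of -0.89 (adjusted p = 0.00763) and -1.06 (adjusted p = 0.00409), and Wnt7b 0.69 (adjusted p = 0.00269) and 0.54 (adjusted p = 0.00857). With progesterone Fzd7 (-0.39, adjusted p = 0.102), Fzd10 (-0.40, adjusted p = 0.111) and Wnt6 (-0.30, adjusted p = 0.173) were no longer called, and in the controls Fzd5 was (0.56, adjusted p = 0.00806). With the fibroblast level as a covariate Rspo3 had values of -0.72 and -1.10, Wnt5a -0.81 and -0.91, and Wnt7b 0.62 and 0.54, all past the threshold. Fzd5 again rose in the controls (0.65, adjusted p = 0.00395). Fzd7 had values of -0.36 and -0.22 and Fzd2 of -0.55 and -0.36 with that covariate, none past the threshold (adjusted p 0.0507 to 0.330). Axin2 with progesterone had a value of -0.22 (adjusted p = 0.263) and Sfrp2 of -0.42 (adjusted p = 0.127). Fzd10 with progesterone had a value of -0.38 (adjusted p = 0.222), close to that without the covariate, and Wnt6 of -0.21 (adjusted p = 0.439). The median fibroblast level itself differed between 20 min and 2 h (0.28 and -0.23 in the controls, 0.55 and -0.42 with progesterone). In these fits the make-up of the samples, time and pool cannot be told apart, and the cause of a gene's change was not tested.

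**Figure D4:**
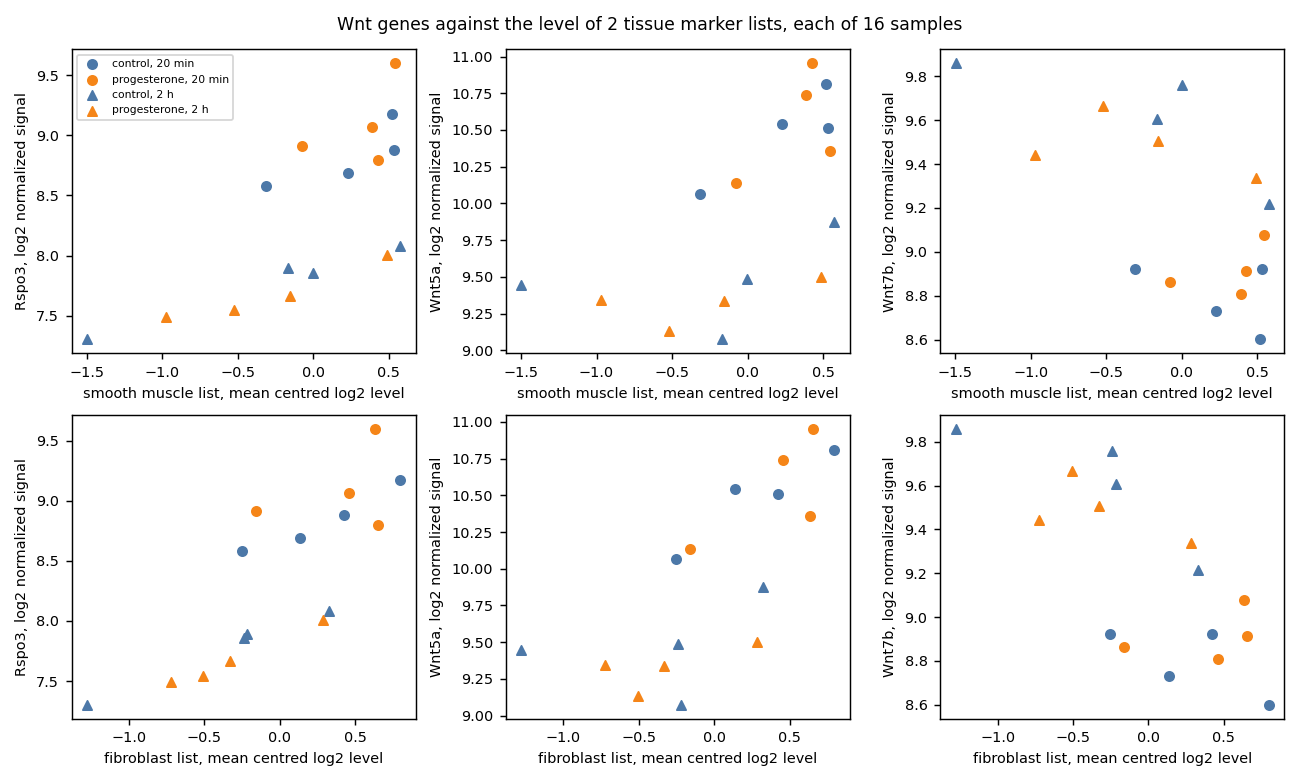
Log2 normalized signal of Rspo3, Wnt5a and Wnt7b (vertical) against the mean centred log2 level of the smooth muscle and fibroblast marker lists (horizontal) in the 16 samples. Samples of 2 h (triangles) lie below those of 20 min (circles) for Rspo3 and Wnt5a and above them for Wnt7b, and the list levels of the times overlap.

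Exposure to progesterone called none of the Wnt probes. At 20 min limma called 0 of the 45 Wnt probes with the threshold of 0.20, against 0% of all probes, and 2 had an unadjusted p under 0.05 (847 of all 16848). At 2 h it called 0 of 45, against 0.00594% of all probes (1 probe), and 1 had an unadjusted p under 0.05 (437 of all). The study's own paired test listed more genes at 2 h than the 1 probe called here, so the counts depend on the test. The median log2 fold change of the Wnt probes was 0.026 at 20 min and -0.0006 at 2 h. The values ran from -0.19 to 0.31 at 20 min and from -0.22 to 0.11 at 2 h. Progesterone was above or below its control in all 4 pairs for 9 of the 45 probes at 20 min (20%, against 12.8% of all probes), 6 of them higher, and for 1 probe at 2 h (2.22%, against 10.4%).

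**Figure D5:**
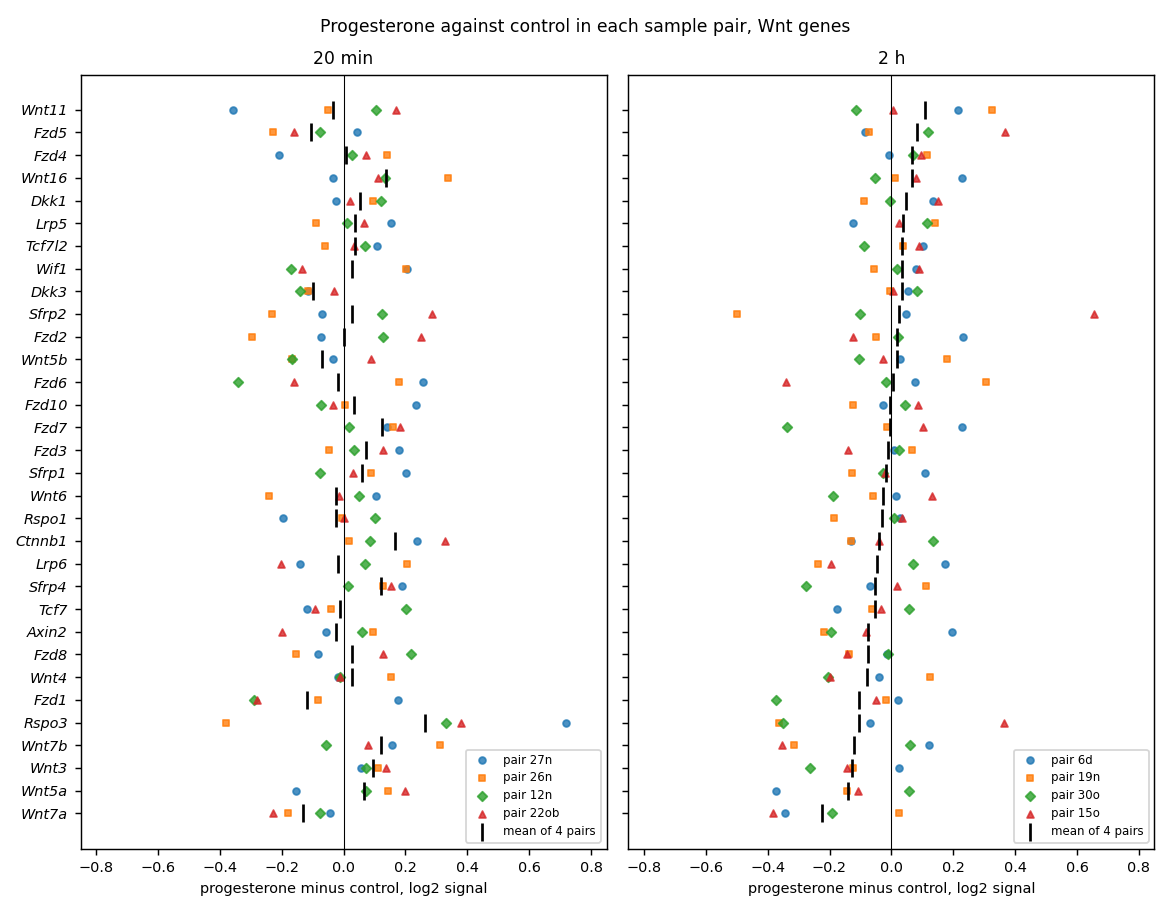
Difference in log2 signal between progesterone and control in each of the 4 pairs of 20 min and the 4 pairs of 2 h, for the 32 Wnt genes tested, ordered by the mean at 2 h. For most genes the pairs lie on both sides of 0; Wnt7a is at or left of 0 in 7 of 8 pairs.

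Wnt7a had the smallest p of the Wnt genes at 2 h. Its difference was -0.34, 0.03, -0.19 and -0.38 (pairs 6d, 19n, 30o, 15o), so it was lower with progesterone in 3 of 4. The mean was -0.22 (SE 0.085, 95% confidence interval -0.42 to -0.03) and the adjusted p was 0.9997. At 20 min the difference was -0.04, -0.18, -0.08 and -0.23 (pairs 27n, 26n, 12n, 22ob), lower in 4 of 4 (mean -0.13, SE 0.061, adjusted p = 0.948). Next at 2 h came Wnt3 (-0.13), Wnt5a (-0.14), Fzd1 (-0.10) and Wnt7b (-0.12), each with an adjusted p of 0.9997.

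At 20 min the smallest p belonged to Ctnnb1, and its probes disagreed. The brightest probe had a mean difference of 0.17 (SE 0.069) and was higher in 4 of 4 pairs. The probe ILMN_2696575 had 0.31 and ILMN_2616556 had -0.19, all with an adjusted p of 0.948. Fzd7 was higher with progesterone in 4 of 4 pairs (mean 0.12, SE 0.060), as was Sfrp4 (0.12, SE 0.060), and Wnt16 had a mean of 0.14 (SE 0.070). The pairs of Rspo3 lay far apart, with differences of 0.72, -0.38, 0.33 and 0.38 at 20 min (27n, 26n, 12n, 22ob; mean 0.26, SE 0.14) and of -0.07, -0.36, -0.35 and 0.36 at 2 h (6d, 19n, 30o, 15o; mean -0.11, SE 0.12). Axin2, read here as a β-catenin target, had means of -0.03 (95% confidence interval -0.18 to 0.12) at 20 min and -0.08 (-0.27 to 0.12) at 2 h. These intervals bound the average effect in the 4 pairs, and a missed threshold does not show that progesterone left the genes unchanged.

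The progesterone effect at 2 h was also compared with that at 20 min in 1 fit over the 8 pairs. None of the 45 Wnt probes was called, against 0.00594% of all probes (1 probe), and 1 had an unadjusted p under 0.05 (699 of all). The smallest p belonged to Wnt3 (-0.22, SE 0.086), which was detected on 2 of 16 arrays, followed by Ctnnb1 (-0.21), Wnt7b (-0.24), Wnt5a (-0.21) and Sfrp4 (-0.17), each with an adjusted p of 0.999. This comparison is at the same time the difference between the changes with time in the progesterone and control arms. For Rspo3 it was -0.37 (SE 0.22, 95% confidence interval -0.84 to 0.10) and for Fzd5 0.19 (-0.06 to 0.43).

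A list of 68 other genes of the pathway was drawn up for comparison, with earlier results of these data known. Of these, 51 were tested. Progesterone called 0 of them at either time. Between 2 h and 20 min, 4 rose (7.84%, against 6.01% of all probes) and 5 fell (9.80%, against 5.33%) in the controls. With progesterone 3 rose (5.88%, against 7.19%) and 7 fell (13.7%, against 7.79%). The casein kinase genes Csnk1d (1.06 and 1.09) and Csnk1e (0.69 and 0.58) and the SUMO protease gene Senp2 (0.77 and 0.61) rose in both arms, and Camk2d, a calcium-dependent kinase, rose in the controls (0.34). The planar polarity genes Prickle1 (-0.73 and -0.76) and Vangl2 (-0.37 and -0.34) fell in both arms, as did Sox17 (-1.08 and -0.67). So did the inhibitors Apcdd1 (-0.76 and -1.05) and Notum, an enzyme that removes the lipid of Wnt proteins (-0.49 and -0.50). Porcn, which attaches that lipid (-0.40), and the glypican gene Gpc3 (-0.78) fell with progesterone. The median over the 51 genes was 0.007 in the controls and -0.05 with progesterone.

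Of 20 known β-catenin targets tested, 1 rose (5%, against 6.01% of all probes) and 5 fell (25%, against 5.33%) in the controls. With progesterone 1 rose (5%, against 7.19%) and 6 fell (30%, against 7.79%). Axin2, Notum, Apcdd1, Tnfrsf19 (-0.86 and -0.99) and Jun (-1.11 and -1.18) fell in both arms, and Bmp4 with progesterone (-0.55). Cd44 rose in both arms (0.94 and 0.75). Jun is also an immediate early gene, and Axin2, Notum and Apcdd1 stand in more than 1 of the groups described here. The targets were listed with earlier results of these data known, so their shares are a description and not a test. The median over the 20 targets was -0.07 in the controls and -0.06 with progesterone, against -0.014 over all probes in both arms.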

How the data were processed

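The data were Illumina MouseRef-8 v2 arrays of 16 samples of mouse fallopian tubes. Per array, the authors deposited 25697 signal intensities summarized in GenomeStudio, not normalized, each with a detection p-value from the negative controls. Their comparisons were not used. All columns were matched to samples by the labels.

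R 4.3.3 and limma 3.58.1 were used for quantile normalization of the signal intensities over 16 arrays, which were then put on the log2 scale, so fold changes of probes near the background understate the true change. The filter, the limma tests (lmFit, eBayes) and the thresholds are given with the results. A gene with several probes was represented by the brightest over all arrays. The pairs come from the study's methods and the codes shared by labels. Deviations from the group means correlated by 0.45 on average (0.35 to 0.55) between samples of a code at 20 min and -0.15 between codes. At 2 h the values were 0.29 (0.00049 to 0.65) and -0.097. The negative values between codes follow from taking deviations from group means and add nothing to the pairing. The study's text gives 6 tubes of 3 animals per sample and also 1 tube of each mouse to each arm, which cannot both hold. The number of arrays limits the precision.

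The genes, the lists and the tests were chosen with earlier results of these data known. Values are given for the 3 brightest genes of each role, all genes called, and the 5 with the smallest p where under 5 were called. The alternatives were median scaling, normexp background correction from the detection p-values (neqc, offset 16), a filter on detection p-values under 0.05 on at least 4 arrays, no filter, another treatment of the pairs, leaving out each pair or sample, and the smooth muscle or fibroblast level as a covariate of the time comparisons, which was added later. The code was tested on simulated data. Figures were drawn in Python 3.11.15 with matplotlib 3.10.9.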

Additional observations from a re-analysis of the deposited data

Results flagged for a closer look

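In 6 of the 128 groups of 4 samples (32 genes in 4 groups), the highest or lowest sample stood apart from the other 3 by more than Dixon's 95% critical value. Chance gives this in about 1 of 20 groups. The log2 signals were 12.21 for Ctnnb1 in the control of pair 12n at 20 min (the highest), 8.16 for Axin2 in the control of pair 19n at 2 h (the lowest) and 7.19 for Fzd1 in the control of pair 30o at 2 h (the highest). Among the progesterone samples they were 7.33 for Fzd2 in pair 12n at 20 min (the lowest), 8.24 for Sfrp2 in pair 22ob at 20 min (the highest) and 7.24 for Fzd2 in pair 6d at 2 h (the highest).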

How the results depend on the processing

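Progesterone called 0 Wnt probes at either time and in the comparison of the times under all alternatives run, among them the fits with no replicate block and those without each pair. For time in the controls (11 probes), leaving out 1 sample gave 6 to 12 probes, and the other alternatives gave 10 to 14. With progesterone (16 probes), leaving out 1 sample gave 10 to 14 probes, the smooth muscle level as a covariate gave 10 and the fibroblast level 7. Median scaling gave 21, with all probes called at 4931 in place of 2524 and 15.3% of these higher at 2 h in place of 48.0%; in the controls it gave 12 Wnt probes, and 26.2% of all calls were higher in place of 53.0%. All 16 arrays with the pair as a random replicate block gave 13 and 16, and of the calls only Wnt6 was lost (adjusted p = 0.0581). The cause of these shifts was not tested. Rspo3, Wnt5a, Axin2 and Fzd10 were called in the controls under all 15 alternatives, and Rspo3, Wnt5a, Wnt7b, Fzd6, Fzd8 and Wif1 with progesterone. With neqc the largest fitted falls included Fzd2 (-1.77 and -1.75) and Rspo3 (-1.59 and -2.08). The sign of Ctnnb1 with time in the controls turned with median scaling (-0.048), the smooth muscle covariate (-0.048), the fibroblast covariate (-0.075) and 6 of the samples left out in turn (-0.047 to 0.093 over all 8). That of Dkk3 with progesterone turned without 3 of the samples (-0.13 to 0.034 over all 8). None of these was called. Among the alternative values of single genes, 586 kept direction and side of the threshold, 50 lost the call, 15 gained one and 12 turned sign. A total of 27 genes were detected on at least 8 of 16 arrays and 17 on all 16, or 16 at a detection p-value under 0.01.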
